A study of Mus musculus with 3 samples.

Results

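The cells described here are γδ T cells of the mouse flexor digitorum longus (FDL) tendon, found by their own transcripts in a single-cell RNA-seq experiment on whole tendon. Of 19709 cells that had 1000 to 5000 detected genes and at most 10% mitochondrial reads, 343 met the rule. A member carried at least 3 unique molecular identifiers (UMIs, each standing for 1 captured RNA molecule) over *Cd3e*, *Cd3g* and *Cd3d*, and at least 2 over *Trdc* and *Tcrg-C1*, the constant regions of the δ and γ receptor chains. It also carried at most 3 UMIs over the complement genes *C1qa*, *C1qb* and *C1qc* of macrophages and fewer than 10 over the tenocyte genes *Tnmd*, *Fmod*, *Kera* and *Cilp2*. The same limits without *Trdc* and *Tcrg-C1* gave 116, 302 and 66 Cd3 cells in the 3 libraries, and the 141 of them that were not members are called other Cd3 cells. The members were thus chosen by measured UMIs of these genes.

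The study asked how depletion of Scleraxis-lineage cells and natural ageing change the cells of the tendon. The 6 M DTR library came from C57BL/6J mice with the Scx-Cre transgene and 1 DTR F/+ allele, in which the *Scx* promoter drives Cre and Cre switches on the diphtheria toxin receptor. The 6 M WT library came from Scx-Cre- mice with the same DTR F/+ allele, and both groups received 5 daily injections of diphtheria toxin (DT) at 3 months of age and were harvested at 6 months. The 21 M B6 library came from 21-month-old C57BL/6J mice with neither allele and no injections. Each library pooled 16 tendons, so mice could not be told apart within it, and there was 1 library per group. The 6 M WT tendons were digested for 120 min and the other 2 pools for 90 min, which cannot be told apart from the groups. *Scx*-driven Cre acts in all cells of that lineage, in tissues other than tendon too. The libraries are shortened below to WT, DTR and B6, and values without a name stand in that order.

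γδ T cells carry a receptor made of a γ and a δ chain in place of the α and β chains of most T cells. In mice, successive waves of these cells leave the fetal thymus, and each wave settles in particular tissues with a characteristic pair of variable (V) segments. Cells with Vγ6 and Vδ1 settle in skin dermis, lung, uterus, joint tissue and other sites, and are known for rapid release of interleukin 17A, a cytokine that acts on fibroblasts and epithelia, in response to the interleukins 1β and 23.

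Both V segments of the Vγ6 and Vδ1 pair were detected among these cells, Vγ6 in fewer of them. A Vδ1 transcript by itself does not show which γ segment a cell used. *Trdv4*, which encodes the Vδ1 segment, was present in 297 of 343 members (86.6%) and in 1 of 141 other Cd3 cells (0.709%). *Tcrg-V6*, which encodes Vγ6, was present in 110 members (32.1%) and in none of the 141 other Cd3 cells. Both lie at the loci whose constant regions chose the cells, so these shares are a description and were not tested. The last 100 bases of the V exon of the 2 segments that marked the members, and of 2 γ segments that few members carried, are shown because their 3′ ends carry the letters that close a V region. Capitals mark the motif TANTACTGT, in these 4 the codons for tyrosine, tyrosine and the cysteine at the junction. Sequences are 5′ to 3′ on the plus strand of GRCm38, from the GENCODE vM21 transcripts.
Trdv4: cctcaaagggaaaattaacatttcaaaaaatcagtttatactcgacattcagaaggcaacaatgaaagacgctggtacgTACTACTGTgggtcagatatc
Tcrg-V6: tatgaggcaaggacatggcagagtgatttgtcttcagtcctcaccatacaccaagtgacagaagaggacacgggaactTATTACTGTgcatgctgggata
Tcrg-V4: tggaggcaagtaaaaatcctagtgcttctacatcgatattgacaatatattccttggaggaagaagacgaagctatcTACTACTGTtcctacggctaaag
Tcrg-V1: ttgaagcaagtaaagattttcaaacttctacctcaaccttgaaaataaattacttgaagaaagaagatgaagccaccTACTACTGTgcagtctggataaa

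These stretches are at chr14:54075416-54075515 (*Trdv4*, exon 2), chr13:19190830-19190929 (*Tcrg-V6*, exon 2), chr13:19185407-19185506 (*Tcrg-V4*, exon 2) and chr13:19340355-19340454 (*Tcrg-V1*, exon 2). The motif, searched over each whole segment in the sense of its transcript, was found in 29 of the 144 T cell receptor V segments of the annotation (20.1%), so it is not particular to these 4. *Tcrg-V4* and *Tcrg-V1* shared 70 of the 100 bases without gaps. *Tcrg-V6* shared 25 with *Tcrg-V4* and 28 with *Tcrg-V1* in that count. The motif starts at a different base in *Tcrg-V6*, so its bases were out of step with theirs there. With gaps allowed, the longest series of bases in the same order was 76 for *Tcrg-V4* with *Tcrg-V1*. It was 66 for *Tcrg-V6* with *Tcrg-V4* and 71 with *Tcrg-V1*. *Trdv4* gave 65, 65 and 67 with *Tcrg-V6*, *Tcrg-V4* and *Tcrg-V1*. No 25-base word was common to any pair of the 4 segments.

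The members made up a larger share of the DTR library than of the other libraries. They numbered 83 of 8357 kept cells in WT (0.993%, exact 95% binomial interval 0.792 to 1.23), 215 of 6554 in DTR (3.28%, 2.86 to 3.74) and 45 of 4798 in B6 (0.938%, 0.685 to 1.25). The interval of DTR lay above the others, and the intervals of WT and B6 overlapped. With a mitochondrial limit of 5% the B6 share was 0.302%, from 7 members. When the rule was applied to cells thinned to 2000 UMIs the shares were 0.467%, 1.85% and 0.417%. Among Cd3 cells the members held 71.6% (62.4 to 79.5) in WT, 71.2% (65.7 to 76.2) in DTR and 68.2% (55.6 to 79.1) in B6, and these 3 intervals overlapped. The other Cd3 cells, 33, 87 and 21 in the same order, therefore followed the same pattern as the members. With 1 pool of mice per group there is no test between libraries, and all intervals between libraries here cover counting error only. A share of kept cells moves when other cells are lost, and fewer tenocytes and more γδ T cells cannot be told apart in it.

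The members' depth differed between libraries. Their median UMI count was 10396 in WT, 7921 in DTR and 9090 in B6, and their summed UMIs were 883368, 1892843 and 438325. The median share of mitochondrial UMIs was 3.99%, 3.56% and 6.92%, and it was highest in B6 among the cells that were not Cd3 cells too, at 2.82%, 2.95% and 5.06%. No member shared a cell barcode with a member of another library, and the libraries shared 15 (WT and DTR), 14 (WT and B6) and 13 (DTR and B6) barcodes over all kept cells. Levels are given below as CPM, a gene's UMIs as a share of all UMIs of the summed members of a library, scaled to a fixed total. They count 3′ ends and are not divided by gene length, so levels of different genes are not compared, beyond naming the gene with the most UMIs of a marker list.

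The genes of the rule set the members apart by construction, and the values describe how far. *Trdc* stood at 1816, 2209 and 1465 CPM and *Tcrg-C1* at 567, 568 and 518 CPM in WT, DTR and B6. *Cd3e*, a signalling chain of every T cell receptor, stood at 293, 343 and 281 CPM, and *Cd3g*, its partner, at 732, 832 and 762 CPM. Most members were far from the limit. The median member carried 26, 22 and 16 UMIs over *Trdc* and *Tcrg-C1*, and 78 of 83, 191 of 215 and 31 of 45 members carried at least 10. Just inside, 2, 5 and 6 Cd3 cells had 2 or 3 such UMIs, of which 1 (in DTR) held *Trdv4*. Just outside, 4, 6 and 6 Cd3 cells had 1 such UMI and none of them held *Trdv4*. The B6 library thus had more of its cells near the limit.

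Genes of other lymphocytes were compared between the members and the other Cd3 cells. *Cd4*, the co-receptor of helper T cells, was found in 10 of 343 members and 64 of 141 other Cd3 cells. The 10 members were all in DTR, and each also carried at least 2 UMIs of *Trac*. *Trac*, the constant region of the α chain, was found in 77 members (22.4%) and 116 other Cd3 cells (82.3%). At least 2 *Trac* UMIs were carried by 5, 30 and 4 members, of which 4, 26 and 1 also held *Trdv4*. All 141 other Cd3 cells carried a UMI of *Trac*, *Trbc1* or *Trbc2*. *Cd8a*, of cytotoxic T cells, and *Ncr1*, the receptor that defines natural killer cells, had no UMI in any member. *Foxp3*, the factor of regulatory T cells, had 1 UMI. *Trbc1*, the constant region of a β chain, was found in 219 members and 60 other Cd3 cells, and β chain transcripts are known in γδ T cells. The natural killer list (6 genes) summed to 3, 2 and 1 UMIs in members, and the B cell list (4 genes) to 4, 5 and 0.

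RNA of the tissue's main cells was also present in the members. The 8 tenocyte markers outside the rule summed to 449, 391 and 70.7 CPM in members, against 24793, 14806 and 5560 CPM in the cells that were not Cd3 cells. In members the gene with the most UMIs was *Comp* in WT, where 1 cell held 78 of its 143 UMIs, and *Col1a2* in the other libraries, and none, none and 2 of the 8 were at 0. The 7 macrophage markers outside the rule summed to 38.5, 98.8 and 45.6 CPM, against 1341, 3750 and 2212 CPM, led by *Cd74* in WT and *Lyz2* in the other libraries, with 4, 1 and 3 of the 7 at 0. The epitenon and fibroblast list (6 genes) was led by *Dcn*, at 635, 423 and 125 CPM in members, against 24174, 17376 and 12077 CPM. *Dcn* was detected in 72, 158 and 31 members, and in WT 1 cell held 342 of its 561 UMIs. The other Cd3 cells held such RNA too. In the comparison of members with other Cd3 cells given below, the macrophage marker *Cd74* (log2 fold change -4.90, edgeR adjusted p = 0.013) and the tenocyte marker *Chad* (-1.72, edgeR adjusted p = 0.021) were lower in members. For *Cd74* B6 ran the other way, at 18.3 CPM in members and 0 in other Cd3 cells. In DTR, 5 of the other Cd3 cells held 1502 of the 1510 *Cd74* UMIs of that class, and 1 held 51 of its 67 *Chad* UMIs. *Chad* stood at 24.9 CPM in members and 30.2 CPM in other Cd3 cells of WT, and B6 had 0 and 2 UMIs. The part of this RNA in the differences between libraries and between classes was not tested.

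Most members in each library carried the Vδ1 transcript. *Trdv4* was detected in 74 of 83 members in WT, 193 of 215 in DTR and 30 of 45 in B6. *Tcrg-V6* was detected in 31, 65 and 14, and 31, 63 and 14 of those also held *Trdv4*. Of the 110 members with a Vγ6 transcript, 2 therefore lacked a Vδ1 transcript. *Tcrg-V4*, of the Vγ4 wave that seeds skin and lymph nodes, was detected in 2, 5 and 4 members, and *Tcrg-V1*, of the Vγ1 cells of spleen and blood, in 5, 12 and 1. None of *Trdv4*, *Tcrg-V6*, *Tcrg-V4*, *Tcrg-V1* and *Tcrg-V7* was detected in 6, 17 and 12 members, and other segments were not part of this count. A 3′ library reads few V segments, so an undetected segment does not show that a cell lacked it. At 2000 UMIs per cell, a depth to which each cell was thinned at random, *Trdv4* was present in 59.0%, 71.2% and 53.3% of members.

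Members with and without a *Trdv4* UMI differed in other genes, and of those named here all but *Il17a* ran in the same direction in the 3 libraries. *Cd163l1*, which encodes the scavenger receptor SCART1 of γδ T cells that make interleukin 17, was detected in 98.6% of the 74 members with *Trdv4* in WT and 33.3% of the 9 without. In DTR the shares were 96.9% of 193 and 31.8% of 22, and in B6 they were 100% of 30 and 20% of 15. *5830411N06Rik*, which encodes the related SCART2, went the other way. Its shares with and without *Trdv4* were 6.76% and 55.6% in WT, 1.04% and 45.5% in DTR, and 0% and 53.3% in B6. *Il17f*, a cytokine close to interleukin 17A, was detected in 4.05% against 22.2%, 9.33% against 40.9% and 3.33% against 33.3%. *Cd27* was likewise detected less often with *Trdv4* (18.9% against 55.6%, 14.5% against 22.7% and 16.7% against 60%), and *Pdcd1* more often (56.8% against 44.4%, 69.4% against 50% and 60% against 13.3%). *Il17a* did not keep 1 direction, at 20.3% against 11.1%, 31.6% against 50% and 3.33% against 6.67%. These cells were divided by a receptor gene of the rule's own locus and cells of 1 library share their mice, so no test was made. The members without *Trdv4* were few, and the cells were not matched for depth. Nor were they matched for distance from the rule's limit. *Trdv4* was held by 73 of 78, 184 of 191 and 29 of 31 members with at least 10 UMIs over *Trdc* and *Tcrg-C1*. Of those with 4 to 9 it was held by 1 of 3, 8 of 19 and 1 of 8. With 2 or 3 it was held by 0 of 2, 1 of 5 and 0 of 6. The split thus in part set cells near the limit against cells far from it, and its part in the differences was not tested.

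**Figure D1:**
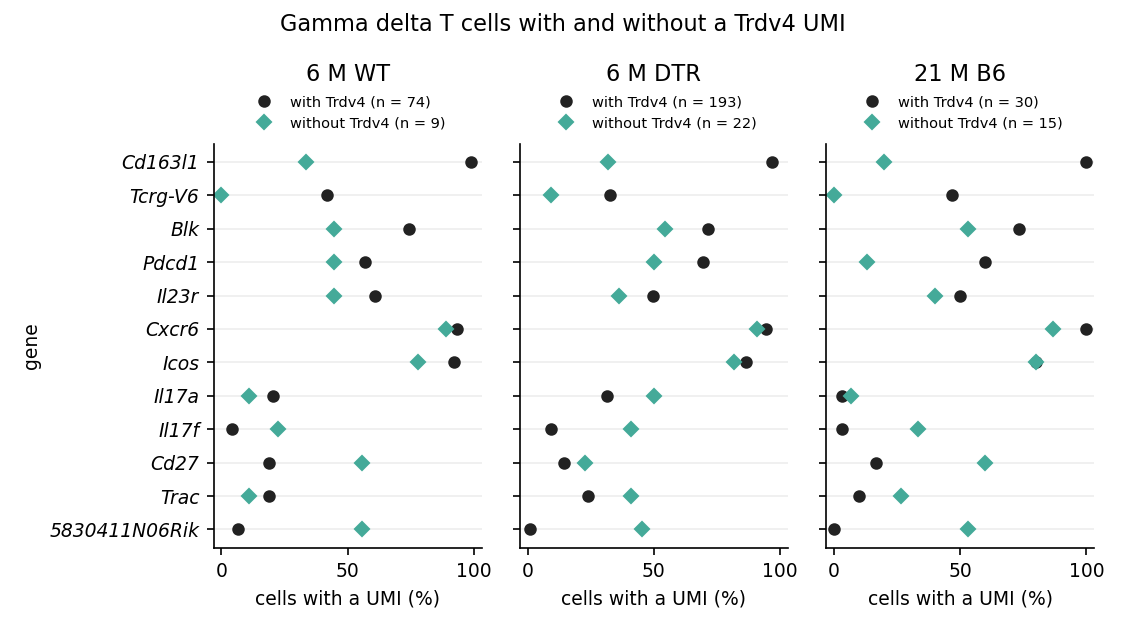
Percentage of members with at least 1 UMI of each of 12 genes, for members with and without a *Trdv4* UMI, in each library. *Cd163l1* was near 100% with *Trdv4* and at most 33.3% without, and *5830411N06Rik* and *Il17f* were higher without *Trdv4* in the 3 libraries.

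*Cd163l1* was the gene outside the receptor loci with the largest rise in members over other Cd3 cells. It stood at 660, 690 and 723 CPM in the members of WT, DTR and B6, and at 15.1, 1.28 and 0 CPM in other Cd3 cells. The 2 classes did not overlap. Summed counts of members and of other Cd3 cells were compared by edgeR's quasi-likelihood test with the library as a block, over 6817 genes that passed a filter on low counts, with Benjamini-Hochberg adjustment. The log2 fold change of *Cd163l1* was 7.20 (SE 0.37, adjusted p = 2.3e-09). Across all genes 138 were higher in members (2.02%) and 108 lower (1.58%), or 134 and 108 without 4 receptor genes of the rule's loci. Without the DTR library, the largest, 22 were higher and 30 lower. The 3 pairs of sums differ in genotype, treatment and age, and the test asks about the average difference over them, which a gene can pass without the same direction in each.

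Genes of the interleukin 17 wave were higher in members. Of 10 genes tested from a list of surface and other genes of these cells, 8 were higher and none lower, and their median log2 fold change was 0.86 against -0.01 over all genes. Beside *Cd163l1* these were *Tmem176a* and *Tmem176b*, which encode paired membrane proteins (0.64 and 0.74), *Ckb*, a creatine kinase (1.38), *Serpinb1a*, a protease inhibitor (0.60), *Ramp1*, part of the CGRP receptor (0.87), *Aqp3*, a water and glycerol channel (1.41), and *Actn2*, an α-actinin (0.84). *5830411N06Rik* had a log2 fold change of 0.67 and an adjusted p of 0.59 by the same edgeR test. It was at 35.1, 31.2 and 61.6 CPM in members and 0, 21.7 and 71.1 CPM in other Cd3 cells, so the classes overlapped. The list was chosen with earlier results of these data known, and its *Cd163l1* had been put forward as a marker of the cells.

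The receptors for the cytokines that drive interleukin 17 release were among the genes higher in members. *Il23r*, of the interleukin 23 receptor, stood at 79.2, 89.8 and 75.3 CPM in members and 33.2, 29.3 and 27.7 CPM in other Cd3 cells (log2 fold change 1.46, edgeR adjusted p = 0.0020). *Il1r1*, of the interleukin 1 receptor, stood at 106, 89.8 and 61.6 CPM against 51.3, 33.2 and 27.7 CPM (1.23, edgeR adjusted p = 0.0055). In cells that were not Cd3 cells *Il1r1* was at 55.0, 47.7 and 67.6 CPM, while *Il23r* was below 1 CPM. *Cxcr6*, a chemokine receptor of tissue T cells, was also higher (0.75, edgeR adjusted p = 0.013), which made 3 of the 7 receptors tested. *Cxcr6* lost its call without the DTR library (edgeR adjusted p = 0.13, with 0.0012 to 0.28 over the alternatives). *Il7r*, *Il18r1*, *Il17re* and *Ccr6* did not pass.

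Of the 8 transcription factors of these cells that were tested, 1 passed. *Sox13*, a factor of the fetal wave that makes interleukin 17, stood at 32.8, 27.5 and 31.9 CPM in members and 0, 1.28 and 7.90 CPM in other Cd3 cells (log2 fold change 3.65, SE 0.64, edgeR adjusted p = 0.0022). Its edgeR adjusted p was 0.18 without the DTR library. *Maf*, *Rora* and *Zbtb16*, other factors of these cells, had log2 fold changes of 0.32, 0.02 and 0.58, and none passed.

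The proximal signalling genes of the T cell receptor changed in both directions. *Blk*, a Src-family kinase of B cells and of γδ T cells that make interleukin 17, stood at 177, 204 and 139 CPM in members and 9.06, 14 and 15.8 CPM in other Cd3 cells (log2 fold change 3.77, SE 0.26, edgeR adjusted p = 8.4e-08). *Lck*, the Src-family kinase of most T cells, stood at 9.06, 11.6 and 6.84 CPM in members and 160, 142 and 79.0 CPM in other Cd3 cells (-3.77, SE 0.27, edgeR adjusted p = 1.1e-07). The classes did not overlap for either kinase, and the changes were of like size in opposite directions. *Cd247*, the ζ chain of the receptor complex, was higher at 187, 189 and 208 CPM against 51.3, 39.5 and 43.5 CPM (2.13, edgeR adjusted p = 3.2e-06). *Fyb* and *Skap1*, a pair of linked adaptor proteins, were lower (-2.80 and -0.76). In all, 2 of the 9 genes tested were higher and 3 lower, and *Zap70*, *Lat* and *Thy1* were among those that did not pass.

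Co-receptors and checkpoint genes were mostly lower in members. *Cd28*, the main costimulatory receptor, stood at 95.1, 77.1 and 70.7 CPM in members and 598, 522 and 198 CPM in other Cd3 cells (log2 fold change -2.47). *Cd5*, a brake on receptor signalling, stood at 0, 14.3 and 0 CPM against 136, 136 and 19.8 CPM (-4.02). *Ctla4*, an inhibitory receptor, fell by 3.22 and *Cd27*, a receptor of the γδ T cells that make interferon γ, by 1.60 on the log2 scale. *Pdcd1*, which encodes the inhibitory receptor PD-1, was the exception. It stood at 212, 307 and 130 CPM in members and 30.2, 42.1 and 15.8 CPM in other Cd3 cells (2.84, SE 0.21, edgeR adjusted p = 1.6e-07). Of 6 genes tested, 1 was higher and 4 lower, and *Icos*, an inducible costimulator, had a log2 fold change of -0.19 (edgeR adjusted p = 0.76). The classes did not overlap for *Cd28* and *Pdcd1*.

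**Figure D2:**
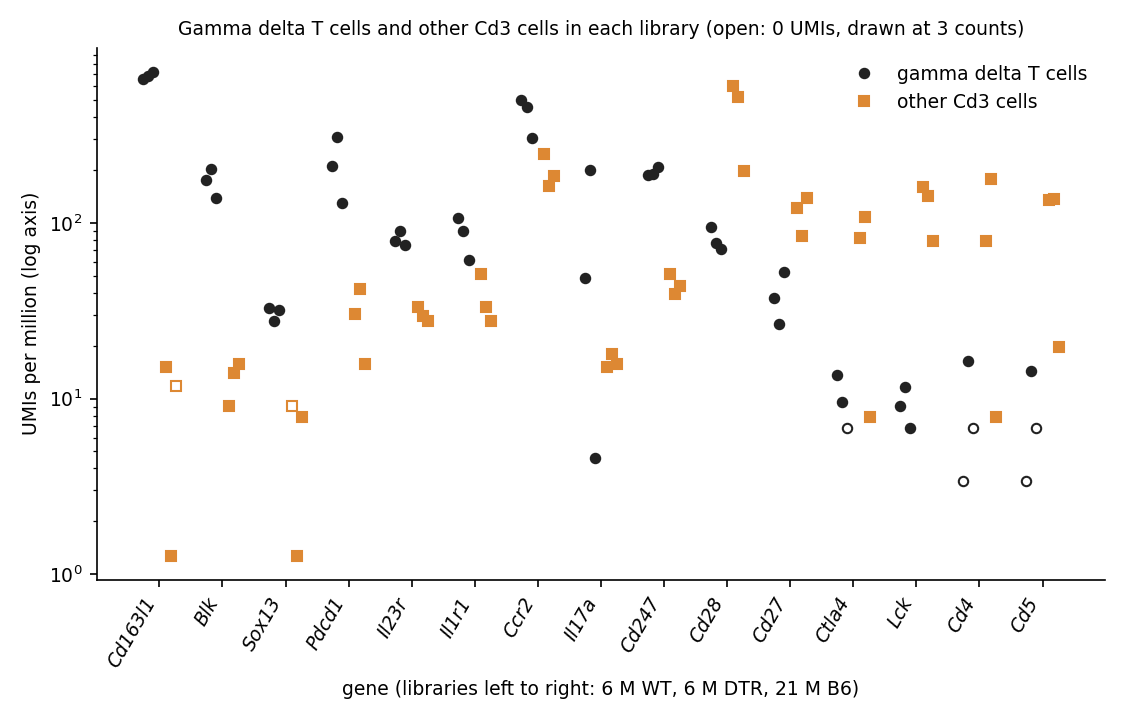
CPM on a log axis of 15 genes in members (circles) and other Cd3 cells (orange squares), the libraries running WT, DTR, B6 from left to right within each gene, and an open symbol standing for 0 UMIs drawn at the level of 3 UMIs. *Cd163l1*, *Blk*, *Pdcd1* and *Cd247* were higher in members in each library, and *Lck*, *Cd28*, *Cd4* and *Cd5* were lower.

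Genes of other T cell programmes changed in both directions. Of the 5 α and β chain genes tested, *Trac* (log2 fold change -2.63) and *Cd4* (-3.90) were lower, and *Trbc1* (0.37) and *Trbc2* (-0.29) did not pass. Of 5 naive and circulating T cell genes, *Ccr7* (-1.32), which guides cells to lymph nodes, and *Lef1* (-1.78) were lower. Of 4 regulatory T cell genes, *Ctla4* and *Tnfrsf18* (-1.12) were lower. *Gata3* (-0.82), the factor of type 2 cells, was lower among 2 tested. Of 5 type 1 and cytotoxic genes, *Klrk1*, the activating receptor NKG2D, was higher (0.82), and *Cd27* and *Nkg7*, a cytotoxic granule protein (-2.61), were lower. Of 8 chemokine receptors, *Ccr2*, the receptor for CCL2, was higher together with *Cxcr6*. *Ccr2* stood at 501, 455 and 303 CPM against 248, 162 and 186 CPM (1.12), while *Ccr4* (-1.11) and *Ccr7* were lower.

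Outside those lists, the largest rises included *Rab27b*, a GTPase of secretory vesicles (log2 fold change 3.71), *Mtcl1*, a microtubule crosslinking factor (3.54), *Pik3ap1*, a signalling adaptor of phosphoinositide 3-kinase (3.48), *Arnt2*, a bHLH-PAS factor (2.67), and *Pde5a*, a cGMP phosphodiesterase (2.38). The largest falls included *Trat1*, an adaptor of the α and β receptor complex (-5.04), *Cd6*, a relative of *Cd5* (-3.81), *Ubash3a*, an inhibitor of receptor signalling (-3.63), *Themis*, a thymocyte development factor (-3.62), and *Tnfrsf4*, which encodes OX40 (-3.65). *BE692007* had 0 UMIs in members and 24 in other Cd3 cells, which made it at least 18.8-fold lower against a floor of 3 counts over the group. Without the DTR library *Rab27b*, *Pde5a* and *Ubash3a* lost their calls. Interferon genes were lower for *Isg15* (-1.77) and *Ifi27l2a* (-4.73) of 6 tested, and of 9 NF-κB and survival genes and 5 cell cycle genes none passed.

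*Il17a*, the cytokine for which these cells are known, had the widest range of ratios between libraries among the 5 genes compared first (*Il17a*, *Cd163l1*, *Trdv4*, *Cxcr6* and *Icos*). The members held 43 UMIs in WT, 377 in DTR and 2 in B6. This was 48.7 CPM (35.2 to 65.6), 199 CPM (180 to 220) and 4.56 CPM (0.553 to 16.5), with exact Poisson intervals that did not overlap. The ratio of DTR to WT was 4.09 (exact 95% interval 2.98 to 5.75), that of B6 to WT was 0.0937 (0.0110 to 0.360), and that of B6 to DTR was 0.0229 (0.00276 to 0.0833). In cells that were not Cd3 cells *Il17a* stood at 0.089, 0.372 and 0 CPM. The level in other Cd3 cells was 15.1, 17.9 and 15.8 CPM, and there the ratio of DTR to WT was 1.18 (0.403 to 4.2). Over the 3 libraries *Il17a* was higher in members than in other Cd3 cells (log2 fold change 2.61, SE 0.46, edgeR adjusted p = 0.0023), although B6 ran the other way and DESeq2 gave an adjusted p of 0.75, the highest of the alternatives. Without the DTR library the gene did not reach the filter on low counts.

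The *Il17a* transcripts came from a minority of members. A UMI was detected in 16 of 83 (19.3%), 72 of 215 (33.5%) and 2 of 45 (4.44%) members. At 2000 UMIs per cell the shares were 4.82% (1.33 to 11.9), 18.6% (13.6 to 24.5) and 2.22% (0.0562 to 11.8), and the intervals of WT and B6 overlapped. In DTR 14 members carried at least 10 UMIs each and 1 carried 56. In WT 1 member reached 10, with 14 UMIs, and in B6 no member carried more than 1. *Il17f* had 12, 61 and 19 UMIs or 13.6, 32.2 and 43.3 CPM, and 1 cell held 5, 11 and 8 of those UMIs, so that the place of B6 above DTR rested on 1 cell. Its ratio to WT was 2.37 (1.26 to 4.84) in DTR and 3.19 (1.47 to 7.21) in B6. In B6, 18 of the 19 *Il17f* UMIs came from the 15 members without *Trdv4*.

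**Figure D3:**
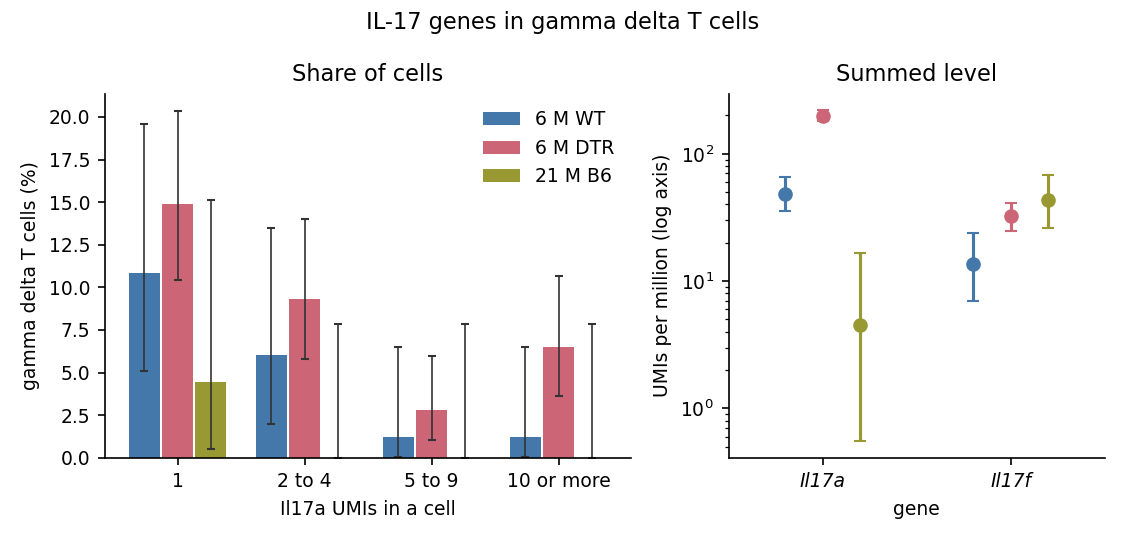
Percentage of members by number of *Il17a* UMIs with exact 95% binomial intervals (left), and CPM of *Il17a* and *Il17f* on a log axis with exact Poisson intervals (right), in the 3 libraries. *Il17a* ran from 4.56 CPM in B6 to 199 CPM in DTR, and *Il17f* was at 43.3 CPM in B6, where 1 cell held 8 of its 19 UMIs.

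Across all genes the members' ratios between libraries were centred near 1 in DTR and below 1 in B6. Among genes that reached 50 CPM in either library of a pair, the median log2 ratio was 0.02 for DTR over WT, -0.25 for B6 over WT and -0.29 for B6 over DTR. Of 3264 genes, 57 were at least 2-fold higher (1.75%) and 31 lower (0.95%) in DTR than in WT. Of 3109 genes, 43 were higher (1.38%) and 220 lower (7.08%) in B6 than in WT. Against DTR, 35 of 3159 were higher in B6 (1.11%) and 289 lower (9.15%). The B6 members held 5.18% of their UMIs in *Gm42418*, which overlaps ribosomal RNA, against 0.971% and 0.955%. They held 3.52% in haemoglobin genes against 0.124% and 0.0369%, nearly all of it in 1 cell, and both lower the CPM of every other gene there.

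*Cd163l1* differed little between libraries, with ratios to WT of 1.05 (0.947 to 1.15) in DTR and 1.10 (0.953 to 1.26) in B6. *Icos* stood at 534, 610 and 294 CPM, with ratios of 1.14 (1.03 to 1.27) and 0.551 (0.450 to 0.671). In other Cd3 cells *Icos* was at 553, 541 and 518 CPM, so the low value of B6 was not seen there. The ratio of DTR fell to 0.934 in female members. *Trdv4* stood at 559, 758 and 470 CPM, with ratios of 1.35 (1.22 to 1.5) and 0.840 (0.711 to 0.991). The *Trdv4* ratio of B6 was 1.01 when scaled by TMM factors and 1.32 when the rule was applied after thinning, so its direction depended on the processing. *Cxcr6* stood at 856, 659 and 591 CPM, with ratios of 0.770 (0.703 to 0.844) and 0.690 (0.597 to 0.796), and it followed the same order in other Cd3 cells at 519, 422 and 324 CPM.

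Of the 10 genes of the interleukin 17 surface list none was 2-fold apart between any pair of libraries among those with 50 CPM (8 for DTR over WT, 9 for each pair with B6). With 1.75% of all genes 2-fold higher and 0.95% lower in DTR over WT, 1.38% and 7.08% in B6 over WT, and 1.11% and 9.15% in B6 over DTR, a count of 0 among so few genes does not set the list apart. The interleukin 23 receptor gene *Il23r* had ratios to WT of 1.13 (0.853 to 1.52) and 0.95 (0.608 to 1.46), and both intervals held 1. *Il1r1* had ratios of 0.844 (0.652 to 1.10) in DTR and 0.579 (0.363 to 0.896) in B6. *Rora*, a nuclear receptor of cells that make interleukin 17, stood at 1288, 1339 and 762 CPM, with ratios of 1.04 (0.969 to 1.12) and 0.591 (0.522 to 0.669). *Pdcd1* had ratios of 1.45 (1.23 to 1.72) and 0.614 (0.448 to 0.830).

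**Figure D4:**
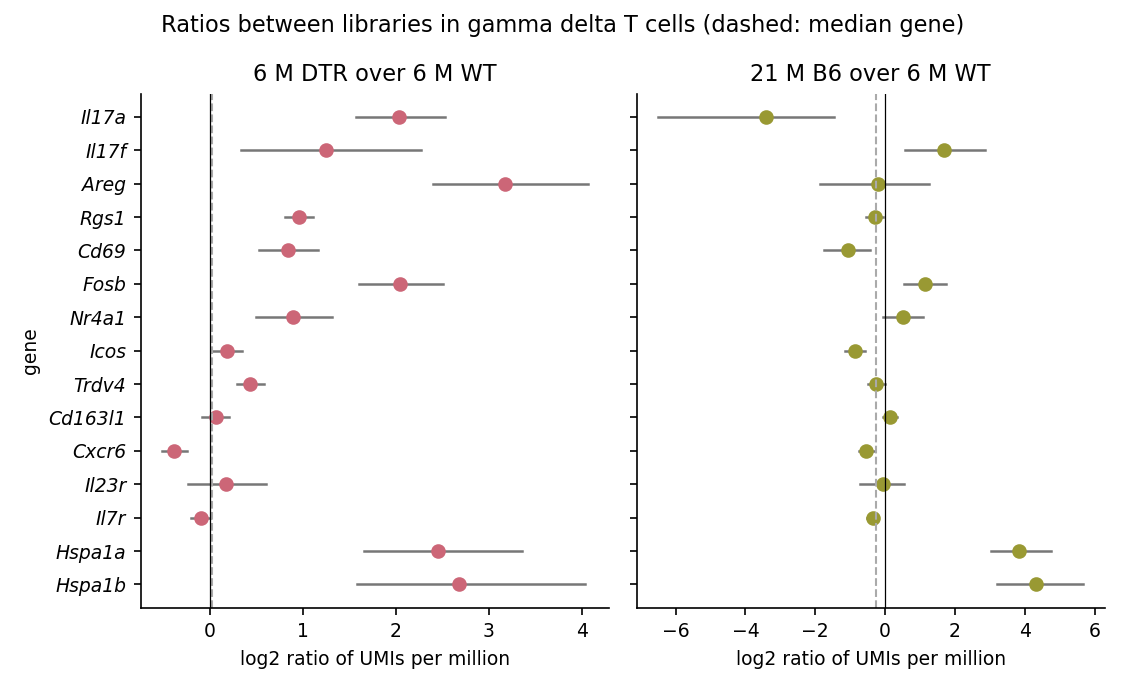
Log2 ratio of CPM in members, DTR over WT and B6 over WT, for 15 genes with exact 95% intervals, and a dashed line at the median gene of each comparison (0.02 and -0.25). *Il17a* lay above the line in DTR and below it in B6, and *Cd163l1* lay near 0 in both.

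Genes of T cell activation and tissue residence differed between libraries in size and direction. *Cd69*, which holds T cells in tissue, stood at a ratio to WT of 1.80 (1.45 to 2.25) in DTR and 0.480 (0.297 to 0.748) in B6. *Rgs1*, a regulator of chemokine receptor signalling, stood at 532, 1033 and 431 CPM, with ratios of 1.94 (1.76 to 2.15) and 0.810 (0.681 to 0.961). The other classes ran in the same order of libraries for both genes. *Rgs1* was at 374, 475 and 332 CPM in other Cd3 cells and 102, 186 and 45.4 CPM in cells that were not Cd3 cells, and *Cd69* at 90.6, 111 and 55.3 CPM and 2.01, 4.54 and 1.2 CPM. *Cd44*, a receptor for hyaluronan, had ratios of 1.2 (1.09 to 1.33) and 0.782 (0.665 to 0.917), and the integrin chain *Itga1* had 1, 5 and 3 UMIs in members. *Itgae*, the integrin chain that binds E-cadherin, had ratios of 0.957 (0.726 to 1.27) and 0.465 (0.262 to 0.784). *Areg*, which encodes the growth factor amphiregulin, stood at 15.8, 143 and 13.7 CPM, with a ratio of 9.0 (5.27 to 16.7) in DTR, where 44 of 215 members carried it. It was at 25.8, 51.8 and 17.9 CPM in cells that were not Cd3 cells and at 0, 84.2 and 15.8 CPM in other Cd3 cells. The DTR library was thus highest in the 3 classes.

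All 10 immediate early genes, which switch on within minutes of a stimulus and also during tissue digestion, had ratios above 1 in DTR over WT, with a median log2 ratio of 0.80. *Fosb* was at a ratio of 4.12 (3.04 to 5.70), *Egr1* at 3.09 (2.08 to 4.74) and *Junb* at 1.98 (1.84 to 2.14). In B6 over WT their median log2 ratio was 0.19, *Fosb* stood at 2.19 (1.44 to 3.32) and *Jun* at 0.297 (0.156 to 0.523). The 10 genes summed to 2037, 3787 and 2484 CPM in members and 6499, 8870 and 12713 CPM in cells that were not Cd3 cells. The stress gene *Hspa1a*, a heat shock protein 70, stood at 15.8, 86.6 and 226 CPM in members and 101, 127 and 917 CPM in cells that were not Cd3 cells, in the same order of libraries. The part of digestion time and of free RNA in these values was not tested.

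Outside the lists, the largest ratios between libraries that came from many members were found for few genes. *Mir155hg*, the host transcript of miR-155, was found in 3 of 83 members of WT and 68 of 215 of DTR (3 and 100 UMIs, ratio 15.6, 5.17 to 76.7), and in 1 of 45 of B6. *Fxyd7*, an ion transport regulator, had a ratio of 2.52 (1.96 to 3.27) in DTR, and *Hopx*, a homeodomain protein of effector T cells, of 2.69 (1.96 to 3.76). *Kit*, the receptor for stem cell factor, stood at 52.1, 12.2 and 89.0 CPM and had ratios of 0.233 (0.135 to 0.393) in DTR over WT and 7.32 (4.27 to 12.8) in B6 over DTR. The DTR library was the lowest for *Kit*. *Ovol2*, a zinc finger factor of epithelia, was found in 3 of 83, 5 of 215 and 13 of 45 members, with a ratio of 11.1 (3.76 to 44.2) in B6 over WT.

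Other genes with large ratios between libraries encode receptors, chosen here by the size of their ratio. *Il21r*, of the interleukin 21 receptor, had a ratio to DTR of 0.149 (0.0738 to 0.271) and *Tnfrsf9*, which encodes 4-1BB, of 0.178 (0.0877 to 0.324). *Tnfrsf18*, which encodes the activation receptor GITR and is on the regulatory T cell list, ran the other way, at 64.5, 55.5 and 169 CPM. Its ratios were 2.62 (1.83 to 3.76) for B6 to WT and 3.04 (2.23 to 4.14) for B6 to DTR. The other classes ran in the same order of libraries for *Tnfrsf18*. It was at 184, 134 and 261 CPM in other Cd3 cells and 1.46, 1.33 and 2.94 CPM in cells that were not Cd3 cells. *Klrc2*, the activating receptor NKG2C, had 33, 133 and 0 UMIs in 8, 55 and 0 members. Its level in B6 was at least 10.3-fold lower than in DTR against a floor of 3 counts. *Gzmb*, a granule protease, stood at 79.2, 24.8 and 18.3 CPM in 21, 22 and 5 members, with ratios to WT of 0.313 (0.212 to 0.460) and 0.230 (0.0957 to 0.479). Large ratios of B6 to WT also came from many members of WT for *Plin2* (0.189, 28 members), *Gna15* (0.210, 31) and *Stat5b* (0.237, 29). Some other large ratios against WT rested on 1 cell. *Lcn2* had 256 of its 258 UMIs in 1 member of WT, and *Ccl5* had 162 of 165 in 1 member.

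The pools held both sexes in different parts. Of the members whose sex could be called from *Xist* and Y-linked genes, 79.5% were female in WT, 36.1% in DTR and 59.0% in B6, against 71.8%, 40.9% and 55.7% among cells that were not Cd3 cells. Sex and group cannot be told apart fully in the ratios between libraries, and ratios by sex were computed only for *Il17a*, *Cd163l1*, *Trdv4*, *Cxcr6* and *Icos*. The *Il17a* ratio of DTR to WT was 3.72 in female and 5.70 in male members. Members with at least 3 UMIs over a subset of the cell cycle genes, which left out *Pcna*, numbered 5 (6.02%), 6 (2.79%) and 2 (4.44%). *Pcna* itself was detected in 67, 149 and 29 members.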

How the data were processed

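The authors pooled tendons, made 10x Chromium 3′ version 3 libraries and deposited filtered UMI counts per gene and cell, 32285 genes in 3 libraries. The matrix headers name Cell Ranger 6.0.1 and the submitters' processing notes Cell Ranger 2.1.1, and the genome build is not given in the sources used here. The labels give the age of the younger groups as 3 months, the age at injection. The filter on genes and mitochondrial UMIs kept 8357 WT cells, a few cells off the number the study states. No doublet caller was run. The C1q and tenocyte limits removed 4, 12 and 0 Cd3 cells that met the receptor limit, in the order WT, DTR, B6.

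Counts of members and of other Cd3 cells were summed per library and tested with edgeR 4.0.16 (quasi-likelihood, library as block) in R 4.3.3, with DESeq2 1.42.0 as an alternative. The study's own test treated cells as replicates, which was not done here. Ratios between libraries used exact conditional intervals, and thinning to 2000 UMIs used Python 3.11.15. The test was checked on simulated data. Of 100 genes changed 2-fold between members and other Cd3 cells it recovered 20%, and of 100 changed 4-fold 87%, among 6845 genes. The simulated counts had the same spread for every gene, and their libraries differed only in depth, so the rates for the real counts can differ. Small changes can go uncalled. Genes named were those of the rule and of 28 lists, the 15 highest and 15 lowest log2 fold changes past an adjusted p of 0.05 that ran the same way in the 3 libraries, and the 10 highest and 10 lowest ratios per pair at 50 CPM or more. In both, the class or library where the gene was higher had to reach the level of cells that were not Cd3 cells. Not all of these are printed, and values of some genes are not reported here. *Xist* is used only to call sex. The members, lists and tests were chosen with earlier results of these data known.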

Additional observations from a re-analysis of the deposited data

How the results depend on the processing

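The shares of members, the comparison with other Cd3 cells and, for *Il17a*, *Cd163l1*, *Trdv4*, *Cxcr6* and *Icos*, the ratios between libraries were repeated under other settings. Ratios of other genes and the split by *Trdv4* were not. When the rule was applied after thinning to 2000 UMIs, members were 0.467%, 1.85% and 0.417% of kept cells in WT, DTR and B6, and 79.1% of Cd3 cells in DTR. With a mitochondrial limit of 5%, B6 kept 7 members (0.302%). The *Il17a* ratios of B6 to WT and to DTR were 0 in female members and at the limit of 5%, since no *Il17a* UMI was left in B6. The share of members with *Il17a* was 1.2%, 10.2% and 0% when 2 UMIs were asked for after thinning, and 19.3% and 33.5% in WT and DTR without thinning. The *Trdv4* ratio of B6 to WT was 1.32 after thinning the rule and 1.01 with TMM scaling, and the *Icos* ratio of DTR to WT was 0.934 in female members. The genes higher and lower in members numbered 51 and 38 with DESeq2 (49 and 37 of them shared), 225 and 185 without a filter on low counts, 44 and 41 with no library block, 75 and 66 at the limit of 5%, and 22 to 122 and 30 to 125 with 1 library left out, the fewest without DTR. The causes of these shifts were not tested. Of 332 fitted values of single genes under these alternatives, 307 kept their direction and call and 25 lost the call. The alternative that asked other Cd3 cells for a *Trac*, *Trbc1* or *Trbc2* UMI kept all of them, so its values could not change. Genes with no fitted value or adjusted p under an alternative were not counted there. Of 180 ratios 149 moved within their interval, 28 moved further and 3 reversed. The B6 members were the fewest and had the fewest summed UMIs (45 and 438325), which widens their intervals.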
